A study of Sus scrofa with 32 samples.

Results

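The transcripts of 5 enzymes of choline oxidation (CHDH, ALDH7A1), homocysteine remethylation (BHMT, MTR) and transsulfuration (CTH) were followed in fetal pig liver, out of 6765 genes named on the array. Every probe set whose array annotation gave exactly 1 of these 5 symbols was taken, which found 9 of the 24123 probe sets on the array: 3 for CHDH, 2 for ALDH7A1, 1 for BHMT, 2 for MTR and 1 for CTH. Liver RNA came from Pietrain fetuses, the offspring of gilts on a control diet or a methyl-enriched gestation diet, at 35, 63 or 91 days post coitum (dpc). Each of the 32 samples was measured on its own porcine Affymetrix expression array, with 5 arrays per diet at the youngest age, 6 per diet at 63 dpc and 5 per diet at the oldest. The composition of the diets is not given in the sources used here. The offspring came from 5 to 6 gilts per stage, and no label says which dam an array belongs to, so p-values measure only the spread between these samples.

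Choline is oxidised to betaine, first by choline dehydrogenase (CHDH) in the mitochondrion and then by a betaine aldehyde dehydrogenase, a reaction that ALDH7A1 can carry out beside its role in lysine breakdown. Betaine gives a methyl group to homocysteine through BHMT, an enzyme abundant in liver, while methionine synthase (MTR) makes the same methionine with a methyl group from folate and with vitamin B12 as cofactor. Homocysteine that is not remethylated enters transsulfuration, where cystathionine gamma-lyase (CTH) releases cysteine, a precursor of glutathione and taurine.

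The deposited values are on a log scale from 2.20 to 16.6, taken as log2 from that range because no source used here states the base, so 1 unit is read as a doubling. Levels are not compared between probe sets, since each has its own probes. A probe set was tested where 5 arrays or more put it above their own 40th percentile, a value of 2.74 to 2.93, which kept 15327 probe sets and 8 of the 9 studied here. A change is called where limma's adjusted p was under 0.05 over all 15327 probe sets, and errors of differences are standard errors. The bacterial spike-ins bioC and bioB stood 1.39 to 1.83 apart on 18 arrays and 0.164 to 0.389 apart on the other 14. These are called high-gap and low-gap arrays. The labels do not name this split, every group held 2 or 3 low-gap and 3 high-gap arrays, and 3691 probe sets (24.1%) differed between the classes.

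Hepatocyte markers were high on all arrays, the erythroid signal fell with age, and markers of other cell types moved too. All 11 hepatocyte markers measured, of 12 listed, lay above the 40th percentile on every array, and their mean signal ran from 13.8 to 14.4 at 35 dpc, 14.6 to 15.0 at 63 dpc and 15.0 to 15.1 at 91 dpc. ALB, serum albumin, averaged 11.4, 14.8 and 15.3 at these ages, while AFP, the fetal albumin relative, averaged 15.7, 15.8 and 15.8. From 35 to 91 dpc 5 of the 11 were called higher and 3 lower, the latter TF, AHSG and SERPINA1 with changes of -0.24 to -0.09. The mean of the 5 erythroid markers measured, of 12 listed, ran from 11.1 to 12.1, from 10.5 to 11.3 and from 8.30 to 9.90, and ALAS2, the heme synthesis enzyme of red cell precursors, averaged 14.2, 13.6 and 11.8. Of the listed bile duct markers 2 of 4 were measured: EPCAM averaged 4.19, 6.73 and 7.92 and KRT19 5.71, 4.82 and 5.53, while SOX9 stayed at the lowest signal. Of 8 myeloid markers 5 were measured, and from 63 to 91 dpc CD14 and CD163 rose (2.49 and 1.63) and ELANE and MARCO fell by 2.15 and by 0.49. Of 8 stellate and mesenchymal markers 5 were measured, and ACTA2 and DCN fell by 0.79 and by 0.87 before 63 dpc, with DCN rising by 1.29 after it. Of the listed kidney, adrenal and pancreas markers, 6 were on the array and 0 passed the filter. In whole liver RNA, fewer cells of a type and less RNA per cell cannot be told apart, and the part of these markers in the changes below was not tested, other than by a fit with the erythroid mean as a covariate.

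Between 35 and 63 dpc, 6 of the 8 tested probe sets rose, for CHDH, ALDH7A1, BHMT and CTH, and 0 fell. Over all probe sets 60.5% changed in this interval, 32.5% higher and 28% lower. Between 63 and 91 dpc the 3 CHDH probe sets rose and 0 of the 8 fell, against 58.5% of all probe sets changed, 29.5% higher and 29% lower. From 35 to 91 dpc the same 6 probe sets were called higher, against 79.9% of all probe sets changed, 40.8% higher and 39.1% lower. With most probe sets on the array changing, a call alone says little about these genes, and the sizes and timing are given gene by gene.

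CHDH, which starts choline oxidation, rose through gestation on all 3 of its probe sets when averaged over diets. On Ssc.23240.1.S1_at the control arrays at 35 dpc read 3.75, 3.84, 2.44, 4.41 and 4.74, and those on the methyl diet 4.64, 4.48, 5.09, 4.39 and 4.70. At 63 dpc the control arrays ran from 5.38 to 5.73 with a median of 5.54, and the methyl-diet arrays from 5.23 to 6.11 with a median of 5.72. At 91 dpc the control arrays read 6.60, 6.46, 6.54, 6.20 and 6.53, and the methyl-diet arrays 6.75, 6.42, 6.69, 5.82 and 6.08. All 63 dpc arrays lay above all 35 dpc arrays, whereas the 2 later ages overlapped. The rise was 1.38 ± 0.18 from 35 to 63 dpc, or 2.6-fold (limma adjusted p = 1.9e-07), and 0.78 ± 0.18 from 63 to 91 dpc (limma adjusted p = 0.000445). From 35 to 91 dpc it came to 2.16 ± 0.19, or 4.46-fold (limma adjusted p = 9.99e-12). Control replicate 3 of 35 dpc, at 2.44, lay below its array's 40th percentile, so these fold sizes start from a low signal. High-gap and low-gap arrays taken separately gave 1.45 and 1.30 for the earlier interval and 0.85 and 0.64 for the later one.

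The other CHDH probe sets moved the same way, with smaller total rises. Ssc.23240.2.S1_at read 4.14, 4.22, 3.61, 4.38 and 3.90 in control and 4.14, 4.30, 4.19, 4.35 and 4.22 in methyl-diet arrays at 35 dpc. At 91 dpc it read 5.97, 5.29, 6.05, 5.64 and 5.42 in control and 5.32, 5.90, 5.52, 5.29 and 5.01 in methyl-diet arrays. The youngest and oldest livers did not overlap, and the 63 dpc arrays, from 3.63 to 5.51 with a median of 4.91, spanned most of the distance. The change was 0.63 ± 0.17 in the earlier interval (limma adjusted p = 0.00178) and 0.77 ± 0.17 in the later one (limma adjusted p = 0.000231), 2.63-fold in all.

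On Ssc.23240.3.S1_at the 35 dpc arrays read 4.03, 3.39, 3.77, 3.31 and 3.31 in control and 3.72, 3.98, 3.31, 2.99 and 2.90 under the methyl diet. The 63 dpc arrays ran from 3.96 to 4.96 with a median of 4.69. The 91 dpc arrays read 5.53, 5.76, 5.34, 5.06 and 4.94 in control and 4.79, 5.82, 5.01, 4.66 and 4.10 under the methyl diet. The lowest 91 dpc array, on the methyl diet, stood only just above the highest 35 dpc array. The rise was 1.16 ± 0.17 before 63 dpc (limma adjusted p = 7.49e-07) and 0.47 ± 0.17 after it (limma adjusted p = 0.0161), 3.1-fold in all. Methyl-diet replicate 5 of 35 dpc, at 2.90, lay below its array's 40th percentile, so this fold size also starts from a low signal. Once the erythroid mean was added as a covariate, the 3 CHDH changes after 63 dpc became 0.44 ± 0.43, 0.59 ± 0.40 and 0.01 ± 0.39. None was called (limma adjusted p = 0.506, 0.318 and 0.994). The total rise from 35 to 91 dpc was then also not called on Ssc.23240.2.S1_at (1.15, limma adjusted p = 0.0855) and Ssc.23240.3.S1_at (0.99, limma adjusted p = 0.128). The 3 rises before 63 dpc kept their calls in that fit (1.25, 0.56 and 0.98, limma adjusted p = 8.29e-05, 0.0333 and 0.000364). So did the total rise on Ssc.23240.1.S1_at (1.69, limma adjusted p = 0.0201). The erythroid mean did not overlap between 63 dpc (10.5 to 11.3) and 91 dpc (8.30 to 9.90), so the fit separates it poorly from age. The third probe set's later step also lost its call under quantile normalization (0.36, limma adjusted p = 0.0766).

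ALDH7A1 gave different pictures on its 2 probe sets. On Ssc.11751.1.S1_at the control arrays of 35 dpc read 7.95, 9.31, 7.43, 8.68 and 8.40, and those of 91 dpc 7.70, 9.09, 8.08, 8.43 and 7.11. On the methyl diet the 35 dpc arrays read 7.35, 8.50, 7.68, 8.97 and 6.09, and the 91 dpc arrays 6.88, 8.52, 7.25, 8.22 and 6.80. At 63 dpc the control arrays ran from 6.99 to 8.99 (median 7.86) and the methyl-diet arrays from 7.25 to 8.95 (median 8.35). The ranges of the 3 ages overlapped widely, with the lowest and the highest array both at 35 dpc, and the change was 0.00 ± 0.34 before 63 dpc (limma adjusted p = 0.995) and -0.23 ± 0.34 after it (limma adjusted p = 0.583).

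The arrays of that ALDH7A1 probe set sorted by gap class instead of age. At 63 dpc the 6 high-gap arrays ran from 6.99 to 7.95 and the 6 low-gap arrays from 8.46 to 8.99, and the classes did not overlap at 35 or 91 dpc either. Low-gap arrays were higher by 1.39 ± 0.14 (limma adjusted p = 1.06e-08), a difference larger than any fitted between ages or diets on this probe set without covariates. Within the high-gap and the low-gap class the change from 35 to 91 dpc was -0.18 and -0.30. Adding the erythroid mean as a covariate, it became 2.65 ± 0.95 and was called (limma adjusted p = 0.0287), the reverse of its direction without the covariate. That fit did not include the gap class. The erythroid mean ran from 11.1 to 12.1 at 35 dpc and from 8.30 to 9.90 at 91 dpc. The value of 2.65 therefore extrapolates beyond levels shared by both ages.

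The other ALDH7A1 probe set, Ssc.17284.1.A1_at, did not follow the gap class (0.11 ± 0.13, limma adjusted p = 0.569). At 35 dpc it read 7.74, 8.25, 6.59, 7.15 and 7.51 in control and 6.86, 7.16, 7.48, 7.53 and 7.25 in methyl-diet arrays. At 91 dpc it read 7.75, 7.57, 8.18, 8.12 and 7.92 in control and 8.05, 7.77, 7.78, 7.88 and 8.22 in methyl-diet arrays. The 63 dpc control arrays ran from 7.39 to 8.26 (median 7.59) and the methyl-diet arrays from 7.14 to 7.91 (median 7.77). The youngest and oldest livers overlapped through control replicates 1 and 2 of 35 dpc. Averaged over diets, the rise from 35 to 91 dpc was 0.57 ± 0.16, or 1.49-fold (limma adjusted p = 0.0017). It was called on the methyl diet (0.68 ± 0.23, limma adjusted p = 0.00798) and not on the control diet (0.46 ± 0.23, limma adjusted p = 0.0684). It was 0.75 ± 0.21 in high-gap arrays alone and 0.31 ± 0.26, not called, in low-gap arrays alone (limma adjusted p = 0.3). The step from 35 to 63 dpc, 0.37 ± 0.15 (limma adjusted p = 0.0367), has the largest adjusted p of the calls averaged over diets. The call was gone when any single 1 of 9 arrays was omitted: at 35 dpc, control replicates 3 and 4 and methyl-diet replicates 1 and 2, and at 63 dpc, control replicates 5 and 6 and methyl-diet replicates 1, 2 and 3. It was smallest, at 0.26, without control replicate 3 of 35 dpc.

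**Figure D1:**
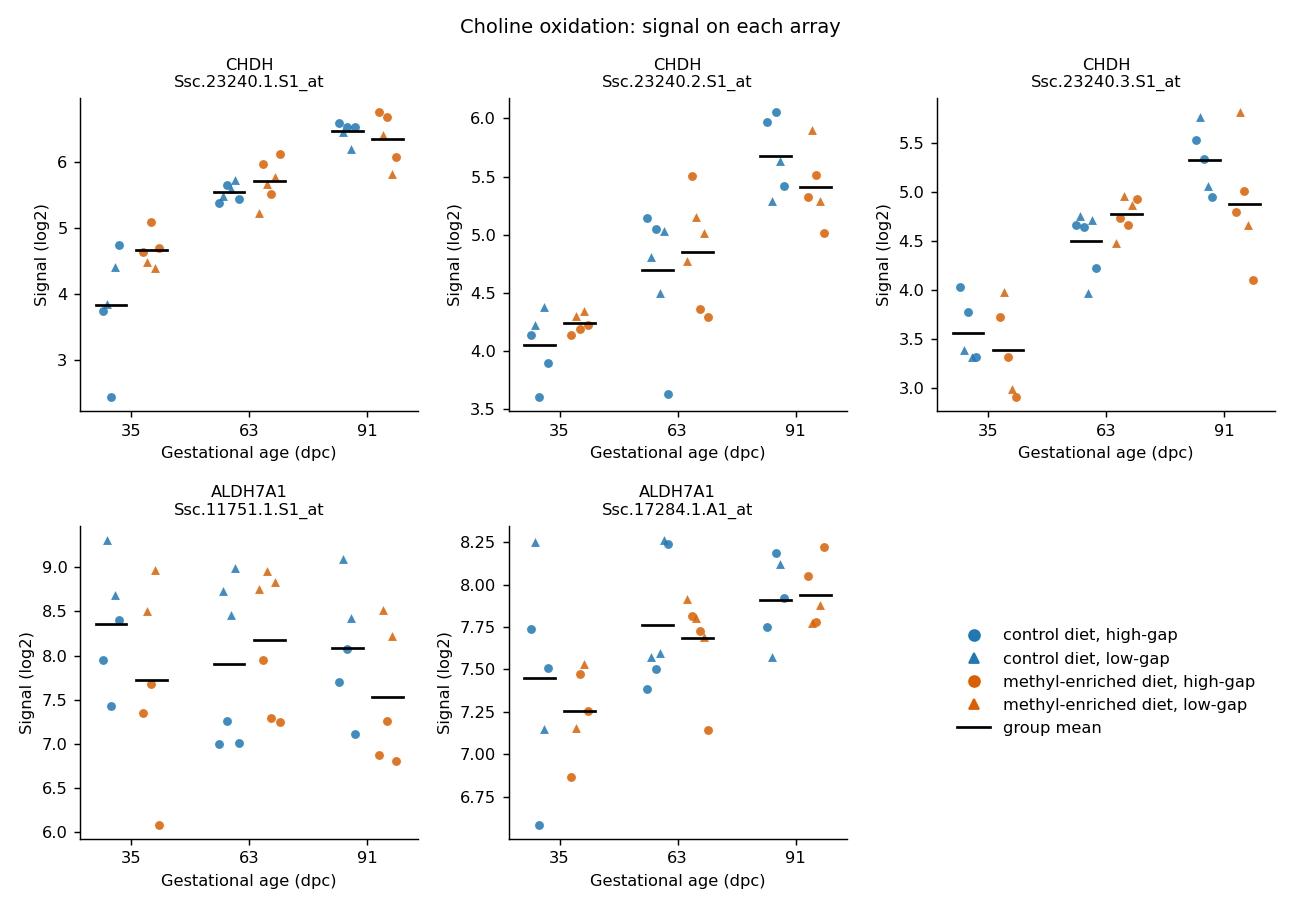
Log2 signal of the CHDH and ALDH7A1 probe sets on each array against gestational age in dpc, with control-diet arrays in blue, methyl-diet arrays in orange, circles for high-gap and triangles for low-gap arrays, and a black line at each group mean. The 3 CHDH panels climb with age, and ALDH7A1 Ssc.11751.1.S1_at splits into triangles above circles at every age. ALDH7A1 Ssc.17284.1.A1_at rises by 0.57 from 35 to 91 dpc when averaged over diets. Vertical scales differ between panels.

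BHMT, the betaine-dependent remethylation enzyme, rose early, with no later change called. At 35 dpc the control arrays read 9.55, 10.17, 9.18, 9.88 and 9.39, and the methyl-diet arrays 8.50, 9.70, 8.92, 9.97 and 9.61. At 63 dpc the control arrays ran from 10.45 to 11.36 (median 10.87) and the methyl-diet arrays from 10.67 to 11.86 (median 11.26). All arrays at 63 dpc lay above all arrays at 35 dpc. The rise was 1.59 ± 0.22, or 3.02-fold (limma adjusted p = 3.72e-07), and it was 1.58 within the high-gap and 1.46 within the low-gap class.

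The later BHMT values spread widely. At 91 dpc the control arrays read 10.63, 11.82, 10.74, 11.50 and 10.77, and the methyl-diet arrays 9.81, 11.79, 10.30, 11.46 and 10.91. The wide spread at this age followed the gap class, as the 4 low-gap arrays all lay above the 6 high-gap arrays. The difference from 63 dpc was -0.11 ± 0.22 (95% interval -0.55 to 0.33, limma adjusted p = 0.688). With the gap class added to the fit as a block it was -0.03 ± 0.13 (limma adjusted p = 0.867). The signs were opposite in high-gap (-0.25 ± 0.19) and low-gap arrays (0.26 ± 0.14), and a difference between the classes was not tested. Across all ages low-gap arrays stood 0.80 ± 0.11 higher on this probe set (limma adjusted p = 1.76e-06).

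MTR, the folate-dependent remethylation enzyme, was barely measurable. Ssc.15975.1.A1_at lay between 2.20 and 2.78 and was above the 40th percentile in 0 of 32 arrays, so it was not tested. Ssc.15975.1.S1_at passed the filter, with 22 arrays above the 40th percentile, yet ran only from 2.39 to 3.30, and 10 arrays shared the value 2.83. Its changes were 0.01 ± 0.09 from 35 to 63 dpc (limma adjusted p = 0.925) and -0.09 ± 0.09 from 63 to 91 dpc (limma adjusted p = 0.355). At a signal this near the lowest deposited value, 2.20, these probe sets leave only a bound, and the low reading does not show that the enzyme was absent.

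CTH, which releases cysteine at the end of transsulfuration, rose by a modest amount. At 35 dpc the control arrays read 10.42, 10.31, 9.68, 10.48 and 10.38, and the methyl-diet arrays 9.83, 9.63, 9.59, 9.99 and 9.76. At 63 dpc the control arrays ran from 10.02 to 10.79 (median 10.37) and the methyl-diet arrays from 10.09 to 11.08 (median 10.33). At 91 dpc the control arrays read 10.77, 10.62, 10.74, 10.53 and 10.73, and the methyl-diet arrays 10.35, 10.40, 10.20, 9.90 and 10.14. The 3 ages overlapped, and the group means of the diets differed by 0.49 at 35 dpc and by 0.48 at 91 dpc, with the methyl diet lower.

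Averaged over diets, CTH rose by 0.38 ± 0.11 from 35 to 63 dpc, or 1.3-fold (limma adjusted p = 0.00434), and changed by 0.05 ± 0.11 after it (limma adjusted p = 0.734). The rise from 35 to 91 dpc was 0.43 ± 0.12, or 1.35-fold (limma adjusted p = 0.00147), with 0.54 within the high-gap and 0.26 within the low-gap class. It was not called with the erythroid mean as a covariate (0.66 ± 0.36, limma adjusted p = 0.145).

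**Figure D2:**
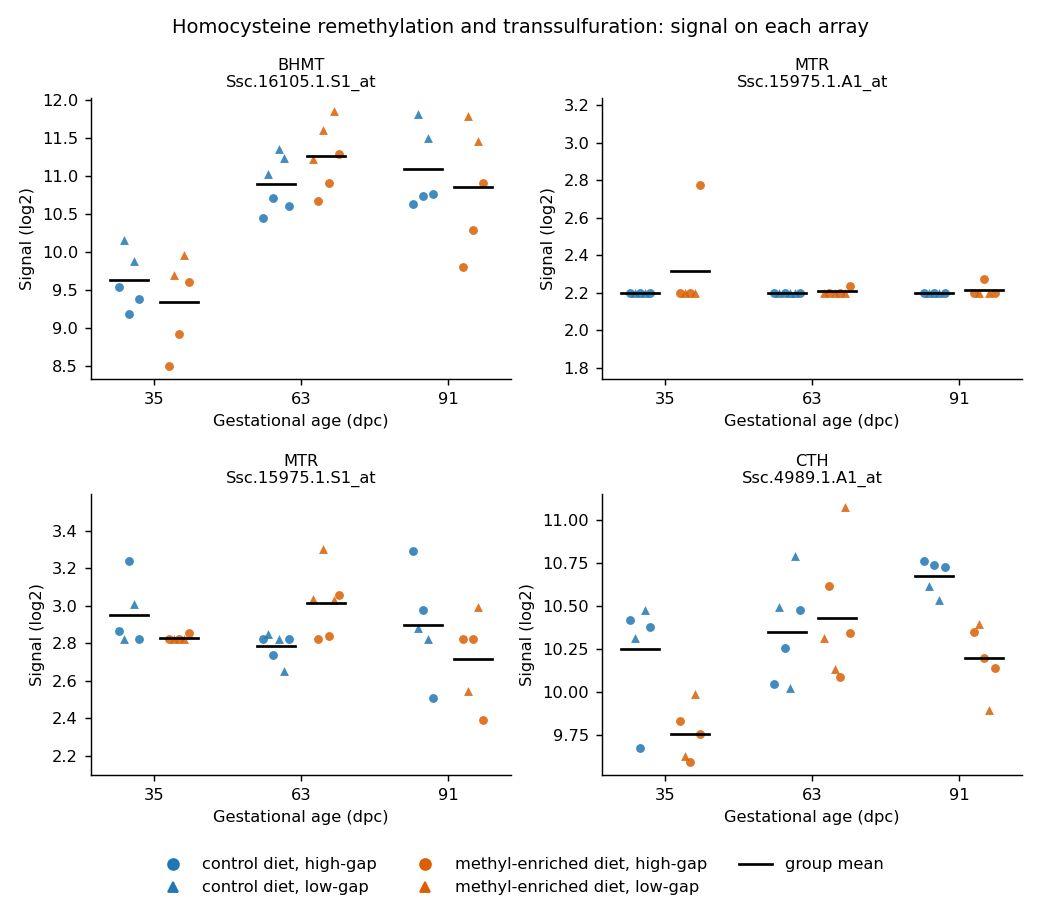
Log2 signal of the BHMT, MTR and CTH probe sets on each array against gestational age in dpc, with colours, symbols and mean lines as diet, gap class and group mean. BHMT steps up by 1.59 between 35 and 63 dpc, both MTR panels stay at or below 3.30, and the CTH panel shows the methyl-diet mean below the control mean at 35 and 91 dpc, with overlap at 35 dpc through 1 control array. Vertical scales differ between panels.

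Averaged over diets, CHDH was called higher in both intervals, and BHMT and CTH only in the one from 35 to 63 dpc. A difference in timing between genes was not tested, and the later CHDH steps were not called with the erythroid covariate. BHMT kept its calls from 35 dpc with that covariate (2.04 to 63 dpc and 3.08 to 91 dpc, limma adjusted p = 4.55e-07 and 0.000444). Without the covariate these changes were 1.59 and 1.49, and the covariate fit did not include the gap class. The erythroid mean did not overlap between 35 and 91 dpc, so the value of 3.08 extrapolates beyond levels shared by both ages. Quantile normalization shifted all probe sets by a median of -0.10 from 35 to 63 dpc and -0.18 from 35 to 91 dpc, and the rises of CHDH, BHMT and CTH over these 2 intervals kept their calls under it. The intervals of the fit are given in the plot of age changes.

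**Figure D3:**
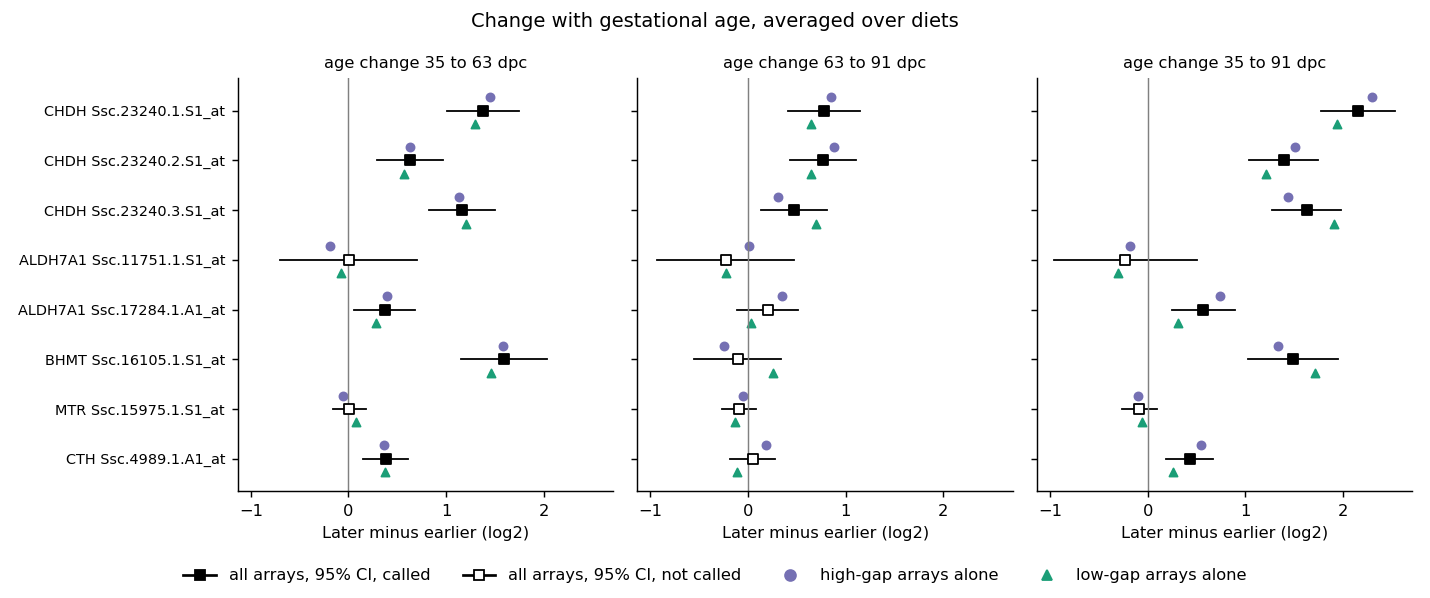
Log2 difference between ages, averaged over diets, for the 8 tested probe sets: squares with 95% confidence intervals from all arrays (filled where called), circles from high-gap and triangles from low-gap arrays alone. CHDH lies right of 0 in each interval, BHMT only in the panels that start at 35 dpc, and the circle and triangle of BHMT fall on opposite sides of 0 from 63 to 91 dpc (-0.25 and 0.26).

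The comparison of diets asked whether the maternal methyl supply altered these transcripts in the fetus. By limma, 0 of the 8 probe sets were called at any age. Over the whole array the calls were 0.0391% of probe sets at 35 dpc, 0% at 63 dpc, 0.0718% at 91 dpc and 0% for the average over ages. The interaction of diet with age was called for 0% of all probe sets and for 0 of these 8. At an unadjusted p under 0.05, 2 of the 8 passed at 35 dpc, 0 at 63 dpc, 1 at 91 dpc, 1 for the average and 3 for the interaction. With the gap class as a block these counts were 3, 1, 2, 2 and 5, again with 0 called. All 15327 probe sets together gave 933, 219, 1000, 685 and 660 such values in the fit without the block. The blocked fit was not counted this way over all probe sets, so its counts have no share to be set against.

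CTH showed the most regular diet difference of the 5 genes, and it did not pass the adjustment. At 91 dpc all 5 methyl-diet arrays, from 9.90 to 10.40, lay below all 5 control arrays, from 10.53 to 10.77. The difference was -0.48 ± 0.17 (95% interval -0.82 to -0.14, unadjusted p = 0.00717 and limma adjusted p = 0.457). The methyl-diet arrays of 35 dpc, from 9.59 to 9.99, overlapped the control arrays only through control replicate 3 at 9.68. The difference there was -0.49 ± 0.17 (95% interval -0.83 to -0.15, unadjusted p = 0.00576 and limma adjusted p = 0.609), and -0.64 ± 0.16 without that array. It had the same sign in high-gap and low-gap arrays at 35 dpc (-0.43 and -0.59) and at 91 dpc (-0.52 and -0.43).

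The CTH arrays of both diets overlapped at 63 dpc, where methyl-diet replicate 5 at 11.08 was the highest, with a difference of 0.08 ± 0.15 (95% interval -0.23 to 0.39). The diet difference at 63 dpc exceeded that at 35 dpc by 0.57 ± 0.23, and that at 91 dpc fell below it again by 0.56 ± 0.23. The interaction test gave an unadjusted p of 0.0219 and a limma adjusted p of 1. Averaged over ages CTH was lower by 0.30 ± 0.09 on the methyl diet (unadjusted p = 0.00326, the 41st smallest of 15327, and limma adjusted p = 0.999).

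No CHDH probe set was called for diet, and only Ssc.23240.1.S1_at had an unadjusted p under 0.05 at 35 dpc. On Ssc.23240.1.S1_at the difference was 0.82 ± 0.26 (95% interval 0.28 to 1.37, unadjusted p = 0.00404 and limma adjusted p = 0.584). Much of it came from control replicate 3, at 2.44, and without that array it was 0.48 ± 0.21. It was 1.17 in high-gap arrays, which include that one, and 0.31 in low-gap arrays. The other 2 CHDH probe sets gave 0.19 ± 0.25 and -0.18 ± 0.24 at 35 dpc, and a difference between probe sets was not tested. At 91 dpc the 3 gave -0.11 ± 0.26, -0.27 ± 0.25 and -0.45 ± 0.24. Leaving out single arrays moved these to between -0.21 (without methyl-diet replicate 1) and 0.02 (without methyl-diet replicate 4), between -0.39 and -0.17 (without methyl-diet replicate 5), and between -0.69 (without methyl-diet replicate 2) and -0.26 (without methyl-diet replicate 5).

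BHMT differed between diets by -0.29 ± 0.32 at 35 dpc, 0.36 ± 0.29 at 63 dpc and -0.24 ± 0.32 at 91 dpc. Control and methyl-diet arrays overlapped at every age, and the 95% intervals ran from -0.95 to 0.36, from -0.23 to 0.96 and from -0.89 to 0.41. Leaving out single arrays moved the 35 dpc value to between -0.45 (without methyl-diet replicate 4) and -0.08 (without methyl-diet replicate 1), and the 91 dpc value to between -0.47 (without methyl-diet replicate 2) and 0.02 (without methyl-diet replicate 1). With the gap class as a block the difference at 63 dpc was 0.36 ± 0.17, with a 95% interval of 0.01 to 0.72 (limma, unadjusted p = 0.0455 and adjusted p = 1). ALDH7A1 Ssc.11751.1.S1_at, with its split by gap class, gave -0.64 ± 0.51, 0.26 ± 0.46 and -0.55 ± 0.51, and Ssc.17284.1.A1_at gave -0.19 ± 0.23, -0.08 ± 0.21 and 0.03 ± 0.23. MTR gave -0.12, 0.23 and -0.18 near its lowest signal. With the gap class as a block, the standard errors of ALDH7A1 Ssc.11751.1.S1_at were smaller and its differences -0.64 ± 0.24 at 35 dpc (95% interval -1.13 to -0.14) and -0.55 ± 0.24 at 91 dpc (-1.05 to -0.05). Neither was called (limma adjusted p = 0.491 and 0.488), and its interaction gave a blocked unadjusted p of 0.0172 (limma adjusted p = 0.704). The BHMT interaction gave 0.0262 under the block (limma adjusted p = 0.71).

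**Figure D4:**
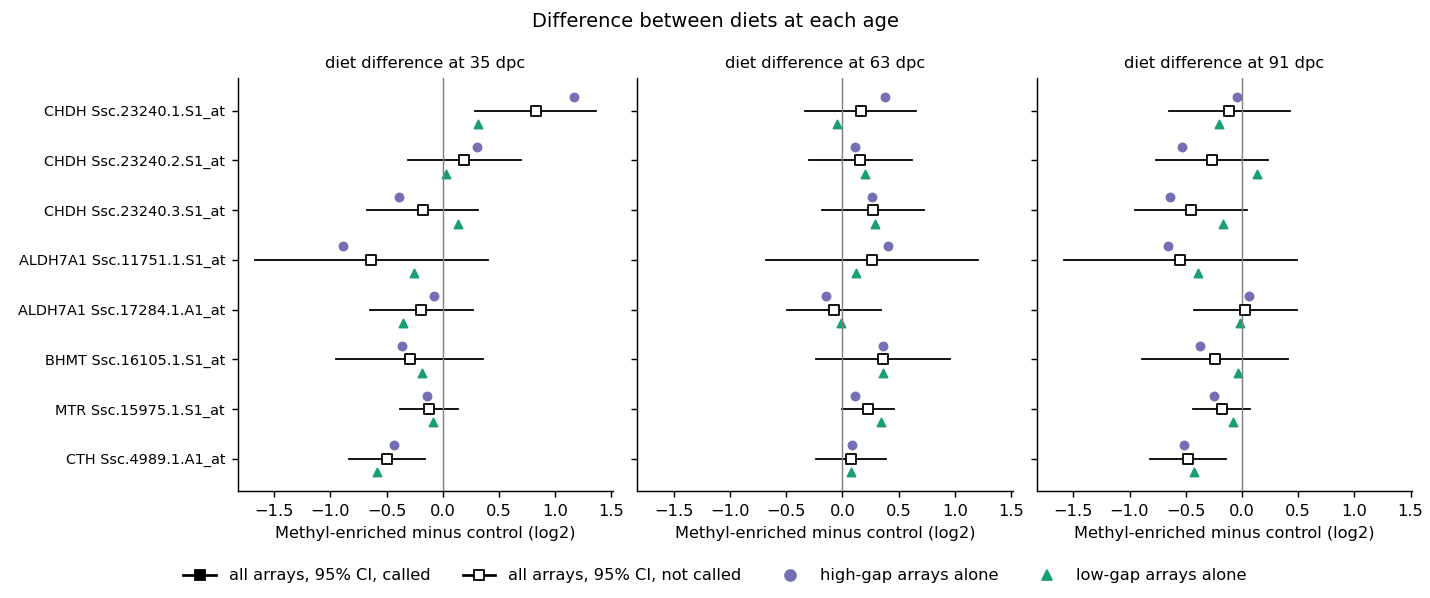
Log2 difference of methyl-enriched minus control diet at each age for the 8 tested probe sets: open squares with 95% confidence intervals from all arrays (none was called), circles from high-gap and triangles from low-gap arrays alone. The CTH interval lies left of 0 at 35 and 91 dpc (-0.49 and -0.48) and across 0 at 63 dpc, and the CHDH Ssc.23240.1.S1_at interval lies right of 0 at 35 dpc.

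Each diet's own course from 35 to 63 dpc was also fitted. On the control diet 4 of the 8 probe sets rose, those of CHDH and BHMT, against 39.5% of all probe sets changed, and on the methyl diet 5 rose, those of CHDH, BHMT and CTH, against 50%. With the gap class as a block, ALDH7A1 Ssc.11751.1.S1_at was also called lower on the control diet (-0.59 ± 0.23, limma adjusted p = 0.0415), against -0.45 without the block (limma adjusted p = 0.494). CTH changed by 0.10 ± 0.16 on the control diet (limma adjusted p = 0.668) and by 0.67 ± 0.16 on the methyl diet (limma adjusted p = 0.000934). BHMT rose by 1.27 ± 0.31 on the control diet (limma adjusted p = 0.00169) and by 1.92 ± 0.31 on the methyl diet (limma adjusted p = 1.18e-05). The test of such differences is the interaction above, which was called for 0 probe sets. From 63 to 91 dpc, the 3 CHDH probe sets rose on the control diet, against 45% of all probe sets changed. On the methyl diet Ssc.23240.1.S1_at rose (0.64 ± 0.25, limma adjusted p = 0.0406) and the near-background MTR probe set fell by 0.30 (limma adjusted p = 0.0445), against 43.7%. The block added a second CHDH call there, on Ssc.23240.2.S1_at (0.57 ± 0.23, limma adjusted p = 0.0434, against 0.0553 without it). On Ssc.23240.3.S1_at the change after 63 dpc was 0.83 ± 0.23 on the control diet (limma adjusted p = 0.00446). On the methyl diet it was 0.10 ± 0.23 (limma adjusted p = 0.758).

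Other genes of the same pathways were read on the brightest probe set of each. Of 20 listed genes of choline and betaine handling, 8 were measured. From 35 to 63 dpc 3 rose and 3 fell, with a median difference of 0.09, against 0.05 over all probe sets, 32.5% of which rose and 28% fell. From 63 to 91 dpc 2 rose and 3 fell (median -0.15, against -0.03 over all, with 29.5% higher and 29% lower). Under quantile normalization the earlier median was -0.07. SLC44A2, a choline transporter-like protein, fell from 9.53 at 35 dpc to 8.60 and 7.51, with changes of -0.92 ± 0.12 and -1.09 (limma adjusted p = 2.73e-07 and 1.24e-08). CHKB, a choline kinase of phosphatidylcholine synthesis, fell by 1.23 from 35 to 91 dpc, whereas its relative CHKA rose by 0.67 and CHPT1, the last step of that route, rose by 1.02. ALDH9A1, another dehydrogenase that can use betaine aldehyde, rose by 0.54 before 63 dpc (limma adjusted p = 3.71e-07). PEMT, which makes phosphatidylcholine by methylation, rose by 0.19 before 63 dpc (limma adjusted p = 0.0348) and fell by 0.32 after it. That rise lost its call without any 1 of control replicates 1, 2 and 5 and methyl-diet replicates 4 and 5 of 35 dpc, and control replicates 3 and 4 and methyl-diet replicates 3 and 6 of 63 dpc. It was smallest, at 0.14, without methyl-diet replicate 5 of 35 dpc.

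Of 16 listed genes of the methionine cycle and folate supply, 8 were measured, 4 of which rose and 2 fell from 35 to 63 dpc (median 0.21, against 0.05 over all probe sets, 32.5% of which rose and 28% fell). From 63 to 91 dpc 2 rose and 2 fell (median -0.07, against -0.03 over all, with 29.5% higher and 29% lower). MAT2A, the S-adenosylmethionine synthetase of most tissues, gained 1.18 between 35 and 91 dpc (limma adjusted p = 6.96e-11), whereas MAT1A, the form of adult liver, fell by 0.48 (limma adjusted p = 2.66e-06). MMADHC, which processes vitamin B12, rose by 1.58. AHCY, which splits S-adenosylhomocysteine into adenosine and homocysteine, fell by 0.59 before 63 dpc and by 0.58 after it. GNMT, a methyltransferase that consumes surplus S-adenosylmethionine in adult liver, fell by 0.74 before 63 dpc from a low mean of 3.94 to 3.20. CBS, DMGDH, SARDH, BHMT2 and MTRR have no probe set of their own symbol in the annotation used here and are not analysed here.

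Of 14 listed genes of transsulfuration and cysteine use, 8 were measured, 2 of which rose and 4 fell from 35 to 63 dpc (median -0.34, against 0.05 and the 32.5% and 28% over all probe sets). From 63 to 91 dpc 0 rose and 4 fell (median -0.43, against -0.03, 29.5% and 29% over all), or 1 and 4 under quantile normalization. SQOR, which oxidises hydrogen sulfide, rose by 2.22 before 63 dpc (limma adjusted p = 4.73e-08). GCLC, the catalytic subunit of the first enzyme of glutathione synthesis, rose by 1.10 in the same interval (limma adjusted p = 1.2e-07), while GCLM, its regulatory subunit, fell by 1.34 after 63 dpc (limma adjusted p = 6.19e-07). The other 2 GCLC probe sets rose by 0.55 and 0.91 before 63 dpc. After it they changed by -0.47 and -0.43 (limma adjusted p = 0.0367 and 0.0671), against 0.01 on the brightest. From 35 to 91 dpc they gave 0.08 and 0.48 (limma adjusted p = 0.717 and 0.0348), against 1.11 on the brightest. The smaller fall of GCLM before 63 dpc (-0.47, limma adjusted p = 0.0314) lost its call without any 1 of control replicates 1 and 2 and methyl-diet replicate 4 of 35 dpc and control replicate 1 of 63 dpc. CDO1, which turns cysteine toward taurine, fell by 1.46 after 63 dpc (limma adjusted p = 1.56e-07), and SUOX, sulfite oxidase, fell by 2.29 over the whole period (limma adjusted p = 1.83e-14).

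The list drawn up for lysine breakdown, the other pathway of ALDH7A1, had 2 of its 8 genes measured, GCDH and AASDHPPT. The part of AASDHPPT in that pathway was not tested. GCDH, glutaryl-CoA dehydrogenase, fell by 1.78 over the whole period (limma adjusted p = 9.37e-16), and AASDHPPT rose by 2.60 (limma adjusted p = 1.69e-08), with 0.65 on its other probe set. By limma 0 genes of the 4 pathway lists were called for diet. In the average over ages the smallest unadjusted values were those of GNMT, 0.36 ± 0.13 higher on the methyl diet (limma, unadjusted p = 0.00829 and adjusted p = 0.999), and of TST, a sulfur transferase, 0.17 ± 0.08 higher (limma, unadjusted p = 0.031 and adjusted p = 0.999).

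**Figure D5:**
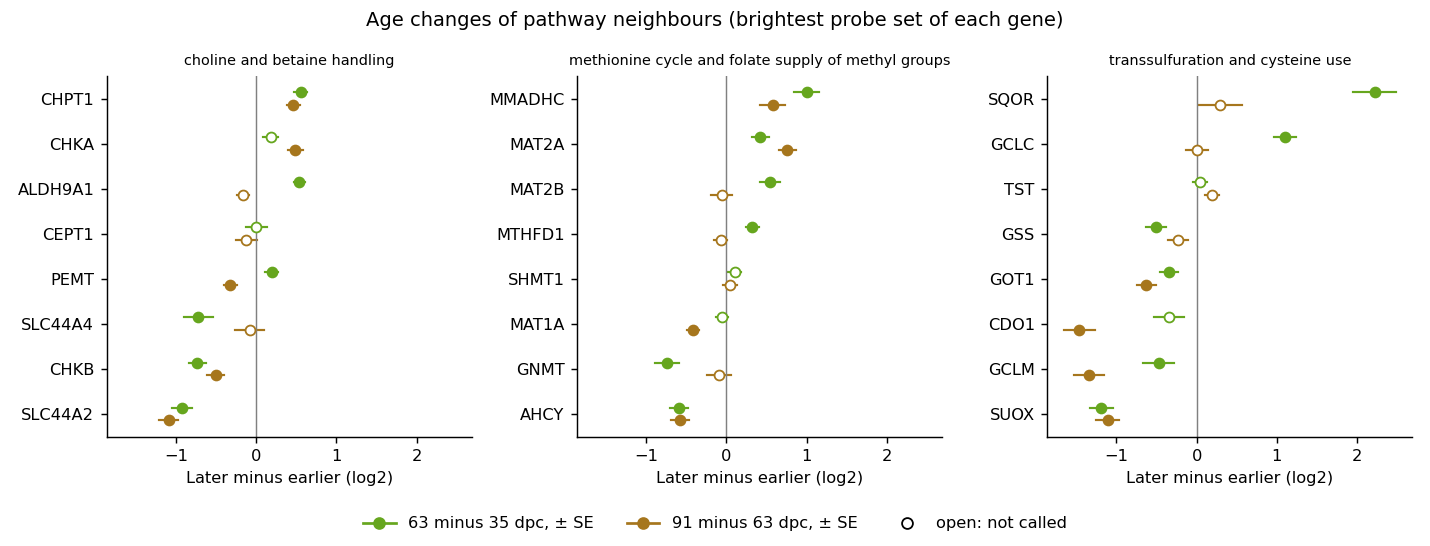
Log2 change of the measured genes of 3 pathway lists from 35 to 63 dpc (green) and from 63 to 91 dpc (brown), with standard errors and open symbols where not called. Each list holds genes on both sides of 0, from SQOR at 2.22 to CDO1 at -1.46.

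The probe sets whose profile over the 32 arrays was most like that of each enzyme, by Pearson r on the brightest probe set, were taken next. Ages, diets and gap classes are shared by all points, so r is a description without a test. CHDH was nearest to ATP1B1 (r = 0.925), FAM149A (0.924) and DAB2 (0.918), and within groups, after subtracting group means, to BIVM, MAL2 and FCGBP (0.668, 0.640 and 0.633). BHMT was nearest to VNN1 (0.925), SCARB2 (0.920) and LOC100157017 (0.914), and within groups to RAB14, GCLC and LIPC (0.910, 0.908 and 0.900), whose low-gap arrays were higher by 0.93, 0.68 and 0.96. ALDH7A1 was read on Ssc.11751.1.S1_at, the probe set that sorted by gap class, and the other ALDH7A1 probe set was not matched. It was nearest to PPP1CC, PDIA3 and HSPA9 (0.918, 0.883 and 0.862), whose low-gap arrays were higher by 1.62, 1.94 and 2.76. Within groups Ssc.11751.1.S1_at was nearest to PPP1CC, EIF4G1 and COPS5 (0.938, 0.903 and 0.901). CTH reached lower values, with FAM204A, SLC35A3 and HNRNPM (0.747, 0.737 and 0.733) and within groups SLC35A3, NAMPT and ZCCHC11 (0.677, 0.643 and 0.633). MTR, near its lowest signal, reached 0.528, 0.515 and 0.509 with P3H4, ABCD4 and SH2B1, and within groups 0.710, 0.698 and 0.618 with P3H4, RRP36 and AEBP1.

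Among the enzymes themselves, the 3 CHDH probe sets correlated at 0.795, 0.757 and 0.786 over the 32 arrays, and at 0.242, -0.012 and 0.336 after group means were removed. The 2 ALDH7A1 probe sets correlated at 0.169 over all arrays and at 0.269 within groups. ALDH7A1 Ssc.11751.1.S1_at and BHMT correlated at 0.674 within groups and at -0.236 once the gap class was removed too. CTH and CHDH Ssc.23240.1.S1_at correlated at 0.502 over all arrays, 0.509 within groups and 0.541 with the gap class removed. Control replicate 3 of 35 dpc was the lowest array of its group on both (9.68 and 2.44). The correlation without that array was not computed, so its share in these values is not known.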

How the data were processed

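RNA from 32 fetal livers was measured on 1 array each, from DNase-treated total RNA and biotinylated cRNA per the labels' protocols. The authors deposited log signals, 1 per probe set, read here as log2 from their range. Per the submitters' processing notes GCOS 1.1.1 was used, with no step stated, and the normalization is not given in the sources used here, so values were used as deposited. The array number limits precision; array medians ran from 3.84 to 4.23. limma 3.58.1 in R 4.3.3 (data.table, version 1.17.8) fitted 6 group means with an intensity trend and 26 residual degrees of freedom, with Benjamini-Hochberg adjustment, and was tested on simulated data. The gap is bioC minus bioB, split at 1. Alternatives were other filters (none, 60th percentile), no trend, quantile normalization, array weights, gap class or erythroid mean as a covariate, each class or diet alone, and leaving out each array. The enzymes, gene lists and the gap split were chosen with earlier results of these data known. Named genes were all probe sets of the 5 enzymes, their 3 most similar probe sets on each measure, and list genes with the smallest p. Symbols came from the array annotation, in which 10099 probe sets have 1 symbol, 198 several and 13826 none.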

Additional observations from a re-analysis of the deposited data

Results flagged for a closer look

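Within groups of 4 to 10 arrays, the highest or lowest array of each tested probe set was set against Dixon's limit, and 3 of 48 groups held an array beyond it, where chance gives about 1 in 20. CTH in control replicate 3 of 35 dpc was 9.68, with the next array at 10.31. The same array was the lowest control array of 35 dpc on CHDH Ssc.23240.1.S1_at (2.44) and Ssc.23240.2.S1_at (3.61). It was also lowest on both ALDH7A1 probe sets (7.43 and 6.59) and BHMT (9.18). On CHDH Ssc.23240.3.S1_at (3.77) it was not, and on MTR Ssc.15975.1.S1_at (3.24) it was the highest. ALDH7A1 Ssc.17284.1.A1_at in methyl-diet replicate 6 of 63 dpc was 7.14, with the next array at 7.69. MTR Ssc.15975.1.S1_at in methyl-diet replicate 5 of 35 dpc was 2.85, in a group whose lowest array was 2.82, near the lowest signal.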

How the results depend on the processing

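No paired analysis was possible because replicate numbers follow the order of deposit and pair no samples. The gap class as a block and a fit without the intensity trend changed 0 of the calls of the 8 probe sets averaged over diets, between diets or for the interaction, and the block changed 2 of 32 calls of age changes within a diet (ALDH7A1 Ssc.11751.1.S1_at and CHDH Ssc.23240.2.S1_at). Over all probe sets, the calls for diet at 35 dpc went from 6 to 18 without a filter and to 0 with the stricter one, and those at 91 dpc from 11 to 2 with the stricter filter, 37 with array weights and 20 with the erythroid covariate. Interaction calls went from 0 to 4 with array weights and 1 with the erythroid covariate. With that covariate, age calls went from 8963 to 2581 for 63 to 91 dpc (from 3 to 0 of the 8 probe sets) and from 12250 to 5789 for 35 to 91 dpc. The change of ALDH7A1 Ssc.11751.1.S1_at from 35 to 91 dpc turned from -0.23 ± 0.36 to 2.65 ± 0.95. The erythroid mean at 91 dpc did not overlap that of the earlier ages, so this fit separates it poorly from age. The cause was not tested. Leaving out each array in turn gave 4 to 13 diet calls at 35 dpc, 1 to 43 at 91 dpc, 0 to 1 for the average, 0 to 7 for the interaction, and 5 to 6 of the 8 probe sets for 35 to 63 dpc. ALDH7A1 Ssc.17284.1.A1_at from 35 to 63 dpc was not called without a filter (0.37, limma adjusted p = 0.0559), with quantile normalization (0.25) or with array weights (0.26). Signal near the lowest value limits MTR.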
